A study of Danio rerio with 8 samples.

Results

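The genes described here are the zebrafish (Danio rerio) genes of ribosome biogenesis and the nucleolus that a liver microarray measured at 3 temperatures. Members were found by name in the platform annotation. They are the probes whose symbol begins with utp, nop, nol or rrp and a digit, or is fbl, dkc1, gar1, nhp2, ncl, pes, bop1, wdr12, wdr43, imp3 or imp4. This gave 57 of 43603 probes, which stand for 37 of the 15548 genes with a symbol. Of the 37 genes, 18 had 1 probe, 18 had 2 and nop56 had 3. Of the 11 symbols spelled out in full, 9 had a probe, and no probe here carried the symbol bop1 or wdr43. One member, nol4lb, shares only the letters of the rule and is not known as a nucleolar gene.

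The series was made to choose temperature-responsive probes for a custom array. Liver RNA came from fish at 18, 26 or 34 °C on day 28, as 2 samples each labelled biological replicates, and from fish at 26 °C on day 4, as 1 sample. The labels name neither the start of the day count nor the strain, sex, age or number of fish. The 7 RNA samples were joined in a loop by 8 Agilent 2-colour arrays, each of which set a Cy5-labelled sample against a Cy3-labelled one. The values are log2 ratios that were turned into a level of each RNA sample relative to the mean of all 7, so a level of 1 is a doubling over that mean. The direction of a ratio is not stated; Cy5 over Cy3 was assumed as likely, and under the opposite direction each sign printed here would turn. P-values rest on the spread within pairs of samples, which may be in part technical.

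Ribosomes are built in the nucleolus, where RNA polymerase I copies the ribosomal DNA into one long precursor. A large particle, the small subunit processome, forms on the front end of that precursor around the U3 snoRNP and folds and cuts the RNA of the small (40S) subunit. Box C/D snoRNPs add methyl groups to the ribosomal RNA and box H/ACA snoRNPs turn uridines into pseudouridines, while another set of factors assembles the large (60S) subunit. The liver makes most plasma proteins and so depends on a large pool of ribosomes. Roles below are those known from the yeast and human proteins of the same names, and the members were sorted by role after their values had been seen, so no test was run on a role.

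Across the 7 samples the members varied more than most genes on the array. The SD of a member's level over the samples had a median of 0.32 on the log2 scale, and ran from 0.047 for nol4lb to 1.28 for imp3. The median was 0.093 over all genes with a symbol and 0.066 over all 35434 features (genes and unnamed probes). This SD holds the spread between replicates as well as between groups. Replicates differed by a median of 0.26 over the members at 18 °C, 0.23 at 26 °C on day 28 and 0.24 at 34 °C. The SE of the difference between 34 and 18 °C had a median of 0.20 over members and 0.062 over all features. None of the 37 members had all 8 ratios within 0.1 of 0, whereas 14.3% of the features did. With no intensities beside the deposited ratios, a dim probe and a steady transcript look alike.

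Replicate 1 at 34 °C held the lowest level of 11 members and replicate 2 that of 10, together 56.8% of the 37, against 42.2% of genes with a symbol and 36.9% of all features. The samples at 34 °C held the highest level of 5 members (13.5%), against 32.7% of genes and 37% of features. Under the opposite direction of the ratios these 2 sets of shares change places. The median level of the members was 0.097 and 0.0013 in the samples at 18 °C, 0.10 and 0.14 at 26 °C on day 28, -0.061 on day 4, and -0.096 and -0.13 at 34 °C. Both samples at 34 °C thus lay below the other 5, but the nearest of them, from day 4, lay above by less than the SD of 0.044 between replicates of this median.

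**Figure D1:**
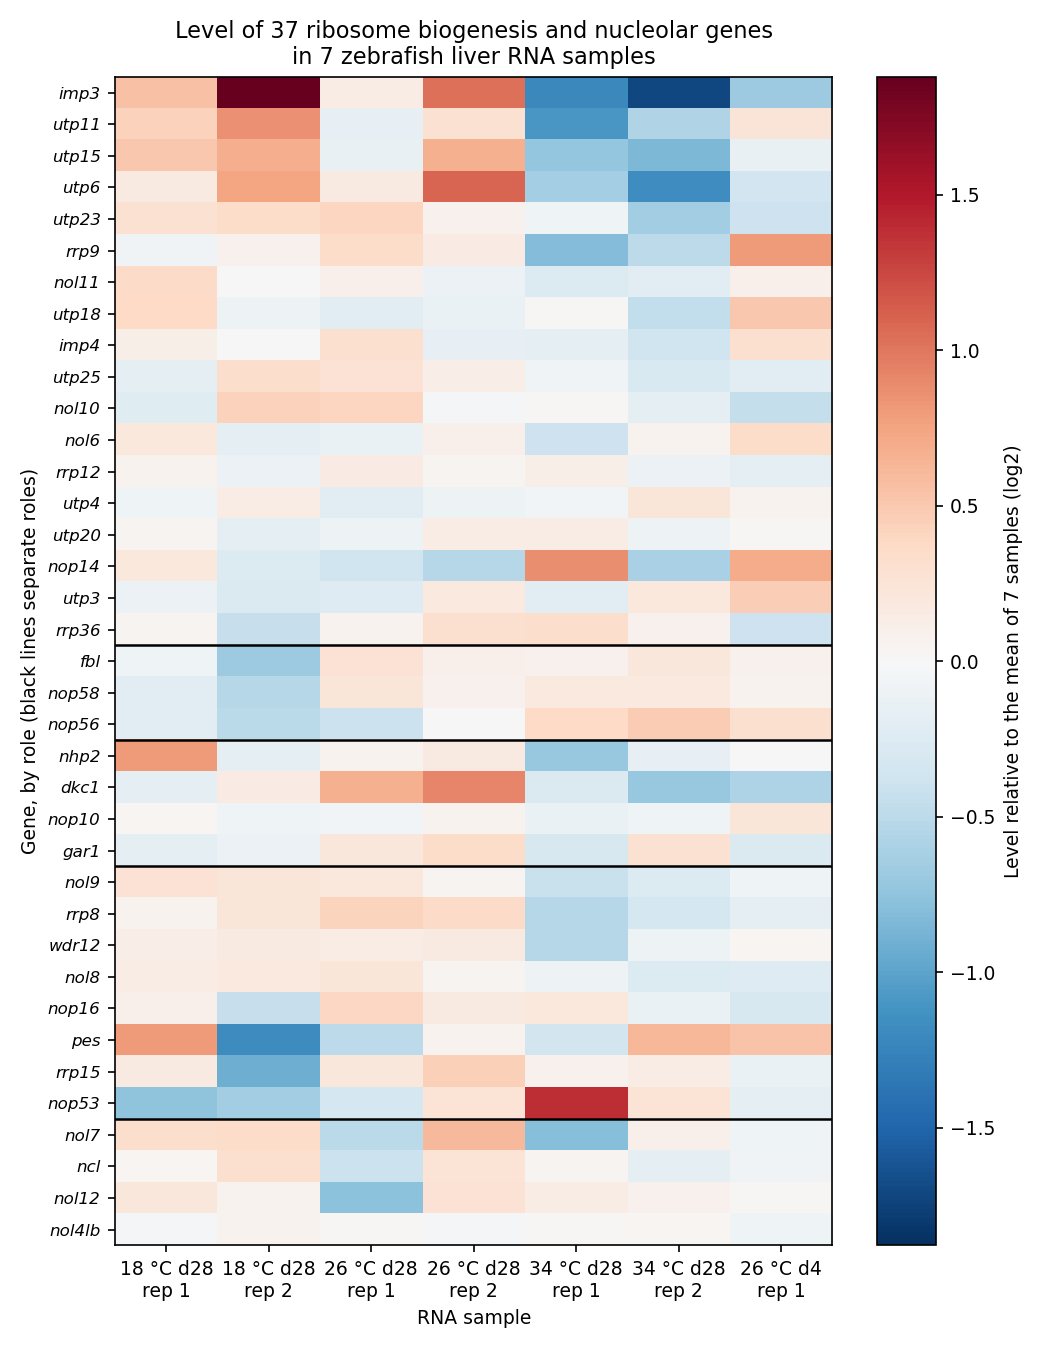
Level of each of the 37 members (rows, by role, with black lines between roles) in each of the 7 RNA samples (columns), in log2 units relative to the mean of the 7 samples. imp3 runs from 1.88 in replicate 2 at 18 °C to -1.71 in replicate 2 at 34 °C, and nop56 from -0.51 to 0.47 between the same samples.

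At 34 °C against 18 °C on day 28, 15 members were higher and 22 lower, with a median difference of -0.17 on the log2 scale. The lower ones were 59.5% of the members, against 54.5% of all genes with a symbol. The median difference was 0.00086 over all features and -0.011 over genes with a symbol. No member passed an adjusted p of 0.05 in limma on the sample levels, where 0.982% of all features did. The lowest adjusted p among members was 0.0617, for nol9. Without adjustment, 14 of 37 members (37.8%) had a p under 0.05, 3 of them higher (nop53, nop56 and nop58) and 11 lower (imp3, utp11, utp15, utp6, utp23, rrp9, nol9, rrp8, wdr12, nol11 and nol8). The background for that count was 13.9% of all features and 23.4% of genes with a symbol. All features include the 14.3% with all 8 ratios within 0.1 of 0, and no member was among those.

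The samples of both temperatures did not overlap for 19 members. At 34 °C, 14 members (37.8%) lay below both samples at 18 °C, against 18.6% of all features and 26.8% of genes with a symbol. The 5 that lay above (13.5%) were rrp36, fbl, nop58, nop56 and nop53, against 18.3% of features and 19.9% of genes. Overlap was judged on the mean of a gene's probes. For fbl, nop56 and nop53 a single probe of each did overlap, as it did for nol11 among those below. In a fit on the 8 arrays directly, which counts arrays as independent although they share samples, 8 members (21.6%) passed an adjusted p of 0.05, against 8.45% of all features. They were nop56 and nop58, which were higher, and imp3, nol9, rrp8, utp11, utp15 and wdr12, which were lower. For the fit on the arrays the share among genes with a symbol was not computed. With 1 sample or array left out of the fit on levels, these 8 members kept their sign. The smallest size each took was -2.0 for imp3, -1.01 for utp11, -0.98 for utp15, 0.64 for nop56, 0.27 for nop58, -0.43 for nol9, -0.31 for rrp8 and -0.27 for wdr12. Here and below, a fit without replicate 2 at 26 °C or replicate 1 at 34 °C had 5 arrays and no dye term. A change in such a fit therefore cannot be laid to the sample alone.

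**Figure D2:**
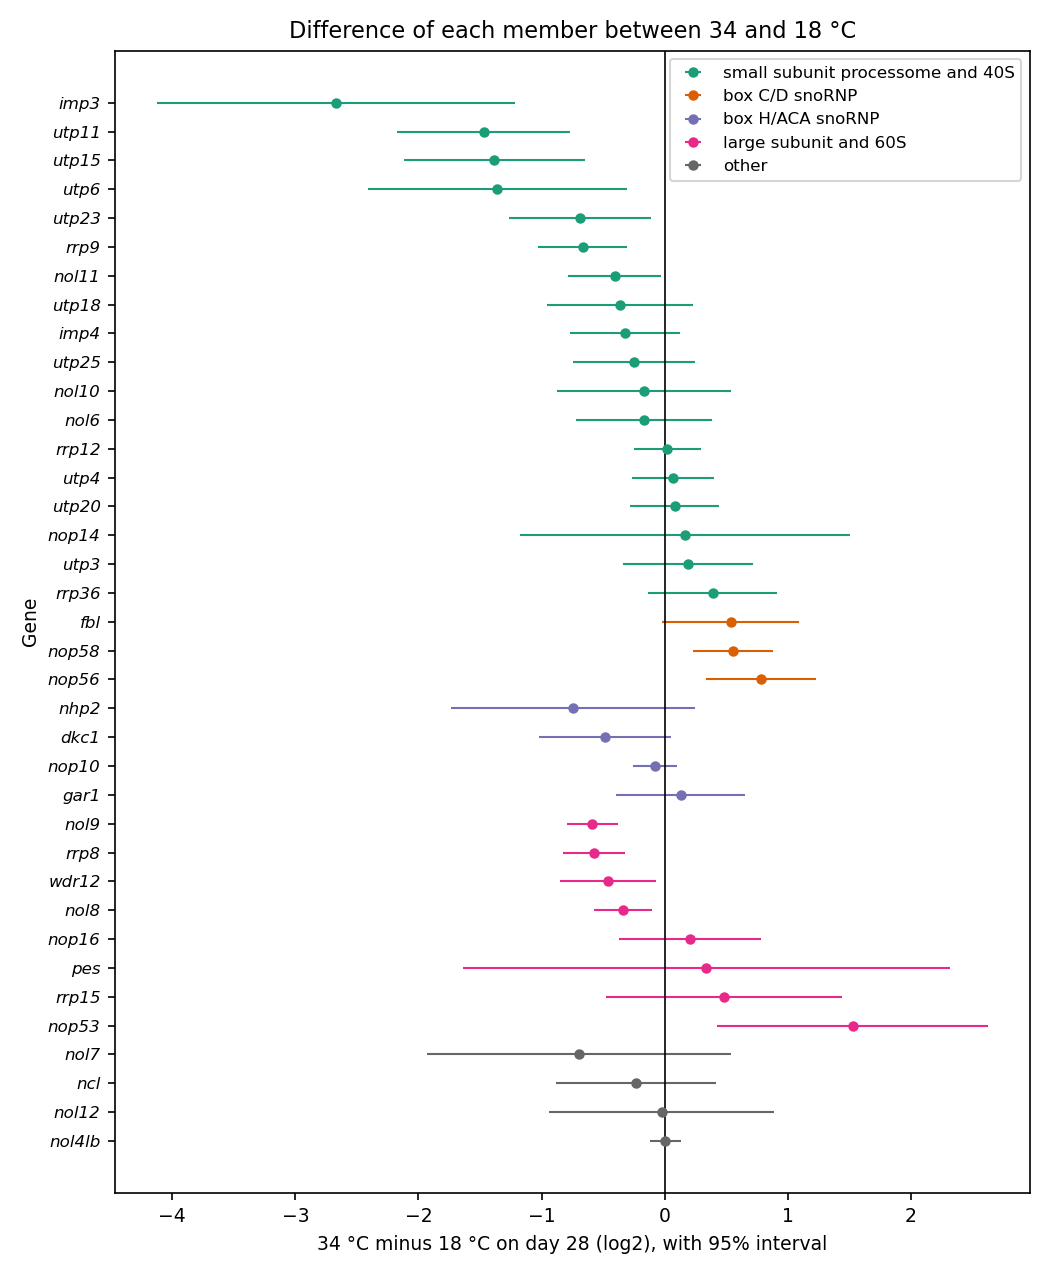
Difference of each member between 34 and 18 °C on day 28 (log2, 34 °C minus 18 °C), with its 95% interval from limma, by role. Points left of the line at 0 were lower at 34 °C; imp3 lies farthest left at -2.67 and nop53 farthest right at 1.53.

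Of the 5 members that differed by more than 1 on the log2 scale at 34 °C against 18 °C, imp3, utp11, utp15 and utp6 belong to the small subunit processome and nop53 to the large subunit group. Among these, utp11, utp15 and utp6 had 1 probe each, as did utp23 and rrp9 below, so no second probe could be compared. Of the 18 processome members, 6 were higher and 12 lower at 34 °C than at 18 °C, with a median difference of -0.29. imp3, a U3 snoRNP protein that helps U3 pair with the precursor, had levels of 0.55 and 1.88 at 18 °C, 0.15 and 1.04 at 26 °C on day 28, -0.69 on day 4, and -1.21 and -1.71 at 34 °C. Both samples at 34 °C were the lowest of the 7. The difference from 18 °C was -2.67 ± 0.55 (moderated SE, n = 2 against 2), a 6.37-fold lower level, with an adjusted p of 0.119 in limma. The 1 array that set 34 °C directly against 18 °C gave -2.01.

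utp11, a processome factor, had levels of 0.43 and 0.86 at 18 °C, -0.15 and 0.28 at 26 °C on day 28, 0.24 on day 4, and -1.09 and -0.57 at 34 °C. All 5 other samples lay above those at 34 °C. Its difference from 18 °C was -1.47 ± 0.27, or 2.77-fold, with an adjusted p of 0.0951 in limma, and -1.44 on the direct array.

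utp15, a subunit of the UTP-A complex that joins the precursor first, had levels of 0.51 and 0.69 at 18 °C and -0.72 and -0.85 at 34 °C. Its samples at 26 °C were split, at -0.15 and 0.67 on day 28 and -0.15 on day 4. The difference between 34 and 18 °C was -1.38 ± 0.28, with an adjusted p of 0.113 in limma.

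utp6, a subunit of the UTP-B complex, had levels of 0.17 and 0.74 at 18 °C, 0.17 and 1.1 at 26 °C on day 28, -0.36 on day 4, and -0.64 and -1.17 at 34 °C. The sample from day 4 lay between those at 34 °C and the rest. Its difference between 34 and 18 °C was -1.36 ± 0.40 (adjusted p of 0.229 in limma), and was -0.63 when replicate 2 at 26 °C was left out.

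For utp23, known in yeast as a processome factor, the levels were 0.28 and 0.35 at 18 °C, 0.41 and 0.09 at 26 °C on day 28, -0.38 on day 4, and -0.09 and -0.66 at 34 °C. The groups at 34 and 18 °C did not overlap, but day 4 lay between the samples at 34 °C. The difference was -0.69 ± 0.22, with an adjusted p of 0.265 in limma.

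rrp9, the U3 snoRNP protein called U3-55K in human, had levels of -0.07 and 0.08 at 18 °C, 0.35 and 0.16 at 26 °C on day 28, 0.80 on day 4, and -0.82 and -0.50 at 34 °C. The difference of -0.66 ± 0.14 between 34 and 18 °C (adjusted p of 0.119 in limma) was not matched in size on the direct array, which gave -0.17. The difference was 0.04 without the sample from day 4 or either of its arrays, so its direction rests on the loop through that sample.

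The rest of the processome members lay closer to 0. nol11, a vertebrate subunit of the UTP-A complex, was at -0.41 ± 0.14 between 34 and 18 °C (adjusted p of 0.316 in limma). The probes of nol11 were at -0.79 and -0.02. Its partner utp4 was at 0.07 ± 0.13, with a 95% interval from -0.27 to 0.40. utp20, rrp12 and utp3 were within 0.19 of 0, with intervals that spanned 0. Another UTP-B subunit, utp18, had 2 probes at 0.32 and -1.05, so its mean of -0.36 stands for no single transcript measure.

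**Figure D3:**
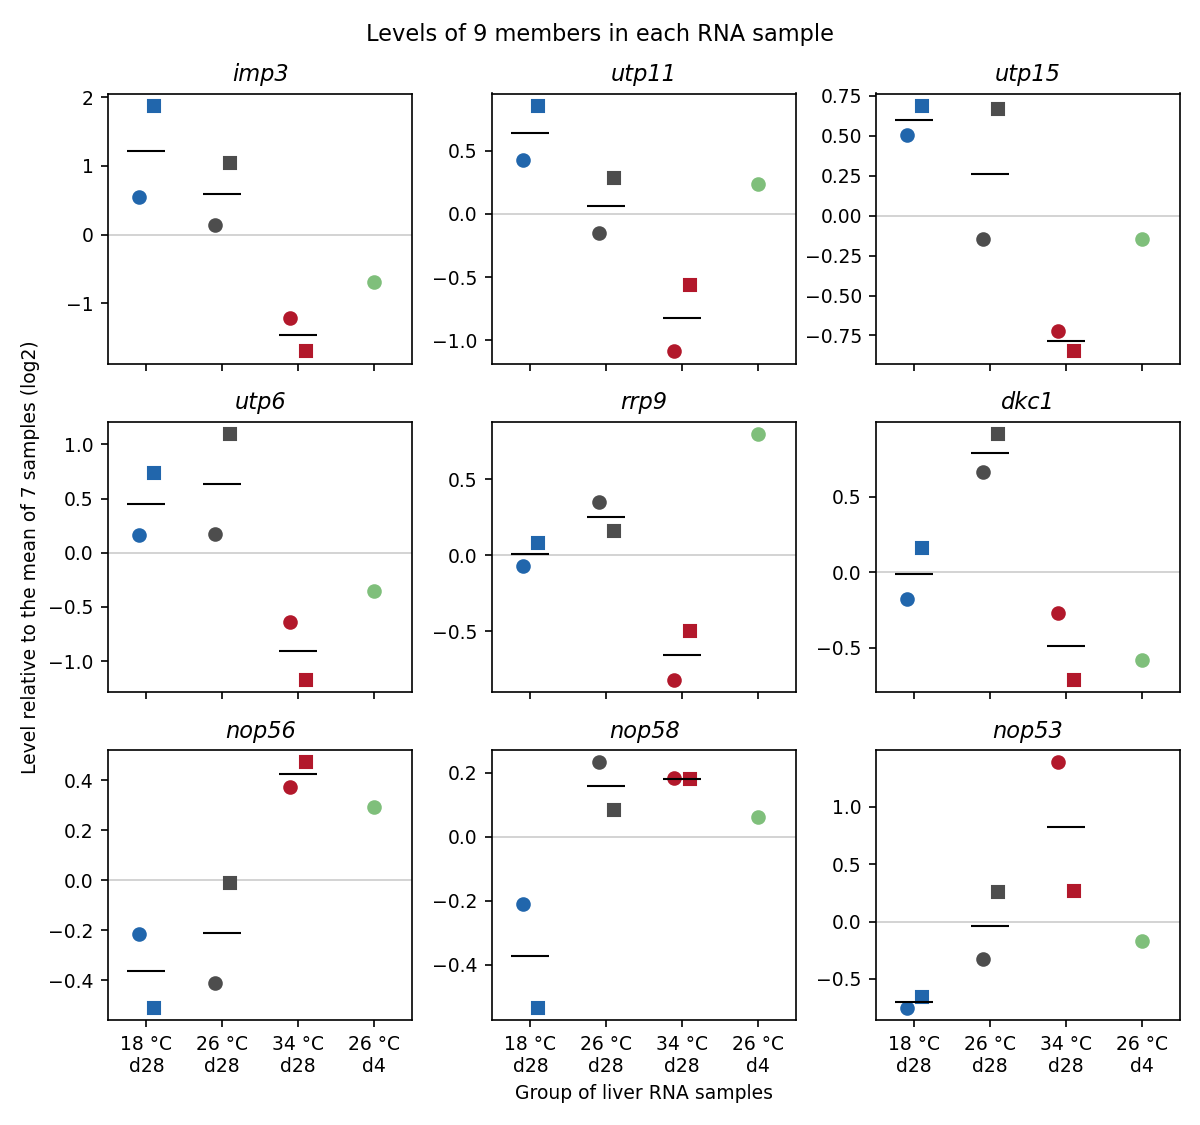
Level of 9 members in each RNA sample (log2, relative to the mean of 7 samples), by group; circles are replicate 1, squares replicate 2 and bars the mean of a group of 2. The samples at 34 °C lie lowest for imp3, utp11, utp15, utp6 and rrp9, and highest for nop56, while nop58 is lowest at 18 °C.

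The 3 box C/D core proteins among the members were all higher at 34 °C than at 18 °C, with differences of 0.54 to 0.79. Their median was 0.55, and none passed the adjusted test. This direction holds for the members alone. From the list of further snoRNP factors read below, snu13b was lower, at -1.46 ± 0.41 (adjusted p of 0.215 in limma), and snu13a was at 0.04. nop56, a scaffold protein of the box C/D particles, had levels of -0.21 and -0.51 at 18 °C, -0.41 and -0.01 at 26 °C on day 28, 0.30 on day 4, and 0.38 and 0.47 at 34 °C. The samples at 34 °C were the highest of the 7, followed by that of day 4. The difference was 0.79 ± 0.17, or 1.72-fold, with an adjusted p of 0.130 in limma. All 3 probes were positive, but for 1 of them -0.08 at 18 °C lay above -0.19 at 34 °C.

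nop58, the partner of nop56, had levels of -0.21 and -0.53 at 18 °C, 0.23 and 0.08 at 26 °C on day 28, 0.06 on day 4, and 0.18 and 0.18 at 34 °C. Here the samples at 18 °C stood apart as low, and those at 26 and 34 °C overlapped. The difference between 34 and 18 °C was 0.55 ± 0.12 (adjusted p of 0.136 in limma), and between 34 and 26 °C it was 0.02, with a 95% interval from -0.30 to 0.35.

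fbl, fibrillarin, the methyltransferase of the same particles, had levels of -0.09 and -0.68 at 18 °C, 0.28 and 0.10 at 26 °C on day 28, 0.09 on day 4, and 0.08 and 0.22 at 34 °C. As with nop58, the samples at 18 °C were the lowest, though for fbl this holds for the mean of its 2 probes. For 1 of them, 0.06 at 18 °C lay above 0.05 at 34 °C. Its difference between 34 and 18 °C was 0.54 ± 0.21, with an adjusted p of 0.381 in limma; without replicate 2 at 26 °C it was 0.13.

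The 4 proteins of the box H/ACA particles did not share the direction of the 3 box C/D members. At 34 °C, nhp2, dkc1 and nop10 were lower than at 18 °C and gar1 was higher, with a median of -0.28. dkc1, dyskerin, the pseudouridine synthase, had levels of -0.18 and 0.16 at 18 °C, 0.66 and 0.92 at 26 °C on day 28, -0.58 on day 4, and -0.27 and -0.71 at 34 °C. It was thus highest in both samples at 26 °C on day 28 and lower at both other temperatures and on day 4. nhp2, an RNA-binding subunit, had levels of 0.80 and -0.18 at 18 °C, 0.07 and 0.17 at 26 °C on day 28, 0.01 on day 4, and -0.72 and -0.15 at 34 °C. The samples at 18 and 34 °C overlapped, and the difference of -0.74 ± 0.38 had an adjusted p of 0.547 in limma.

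Members that act on the large subunit were split, 4 higher and 4 lower at 34 °C against 18 °C, with a median of -0.068. nol9, which in human phosphorylates an end of the large-subunit precursor during its trimming, had levels of 0.28 and 0.23 at 18 °C, 0.19 and 0.05 at 26 °C on day 28, -0.07 on day 4, and -0.41 and -0.26 at 34 °C. All 5 other samples lay above those at 34 °C. The difference was -0.59 ± 0.08, or 1.5-fold, with the adjusted p of 0.0617 in limma given above. nol9, rrp8 and wdr12 were chosen for description after their values were seen.

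rrp8, a methyltransferase that modifies the large ribosomal RNA in yeast, had levels of 0.06 and 0.22 at 18 °C, 0.41 and 0.36 at 26 °C on day 28, -0.19 on day 4, and -0.54 and -0.33 at 34 °C. Again both samples at 34 °C were the lowest. The difference from 18 °C was -0.58 ± 0.10 (adjusted p of 0.0815 in limma). wdr12, which works in the large-subunit complex of pes and bop1, was at -0.46 ± 0.15 (adjusted p of 0.267 in limma), with both probes negative.

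nop53, a large-subunit factor that in yeast brings in the exosome, had the largest positive difference. Its levels were -0.75 and -0.65 at 18 °C, -0.33 and 0.26 at 26 °C on day 28, -0.17 on day 4, and 1.38 and 0.26 at 34 °C. Replicate 2 at 34 °C stood level with replicate 2 at 26 °C, so the height over 26 °C rests on replicate 1. Both samples at 34 °C lay above both at 18 °C in the mean of the 2 probes. For 1 of them, however, 0.08 at 18 °C lay above -0.02 at 34 °C. The difference from 18 °C was 1.53 ± 0.42, or 2.88-fold, with an adjusted p of 0.202 in limma. With 1 sample or array left out, it lay between 1.00 and 2.15.

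rrp15, a large-subunit assembly factor, had levels of 0.16 and -0.91 at 18 °C, 0.21 and 0.45 at 26 °C on day 28, -0.13 on day 4, and 0.08 and 0.14 at 34 °C. Only replicate 2 at 18 °C stood apart, and the difference of 0.48 ± 0.36 between 34 and 18 °C (adjusted p of 0.753 in limma) was -0.07 without that sample. It also turned without replicate 2 at 26 °C, to -0.24, and without the sample from day 4, to -0.19. pes had levels of 0.80 and -1.19 at 18 °C, -0.50 and 0.06 at 26 °C on day 28, 0.53 on day 4, and -0.34 and 0.63 at 34 °C. Its samples at 18 °C lay far apart, and its difference of 0.34 between 34 and 18 °C had an interval from -1.64 to 2.31.

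Of the remaining members, ncl encodes nucleolin, an abundant nucleolar protein. Its 2 probes were at -0.98 and 0.51 between 34 and 18 °C, and their mean was -0.24 ± 0.25. nol7 had levels of 0.34 and 0.35 at 18 °C, -0.50 and 0.60 at 26 °C on day 28, -0.08 on day 4, and -0.80 and 0.09 at 34 °C. Its difference of -0.70 ± 0.47 (adjusted p of 0.707 in limma) was -0.01 without the array of replicate 1 at 34 °C against replicate 1 at 18 °C. nol12 and nol4lb were within 0.03 of 0.

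For 8 of the 19 members with more than 1 probe, the probes pointed both ways at 34 °C against 18 °C: gar1, ncl, nol4lb, nop10, pes, rrp12, utp18 and utp4. For imp3, the probes were at -3.84 and -1.50, which differ in size but not in sign. The probes of fbl, nop53 and nop56 were all positive, though a single probe of each overlapped between 34 and 18 °C. Those of wdr12, nol8 and nol11 were all negative. For nol11, however, they were at -0.79 and -0.02, so its difference rests on 1 of them. The nop56 probes were at 1.26, 0.67 and 0.43, none with an unadjusted p under 0.05 in limma. In each other comparison the probes of 8 of the 19 members also pointed both ways, though not of the same 8. No such check was possible for the 18 members with 1 probe, among them utp11, utp15, utp6, utp23, rrp9, nol9, rrp8, dkc1 and nop58.

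**Figure D4:**
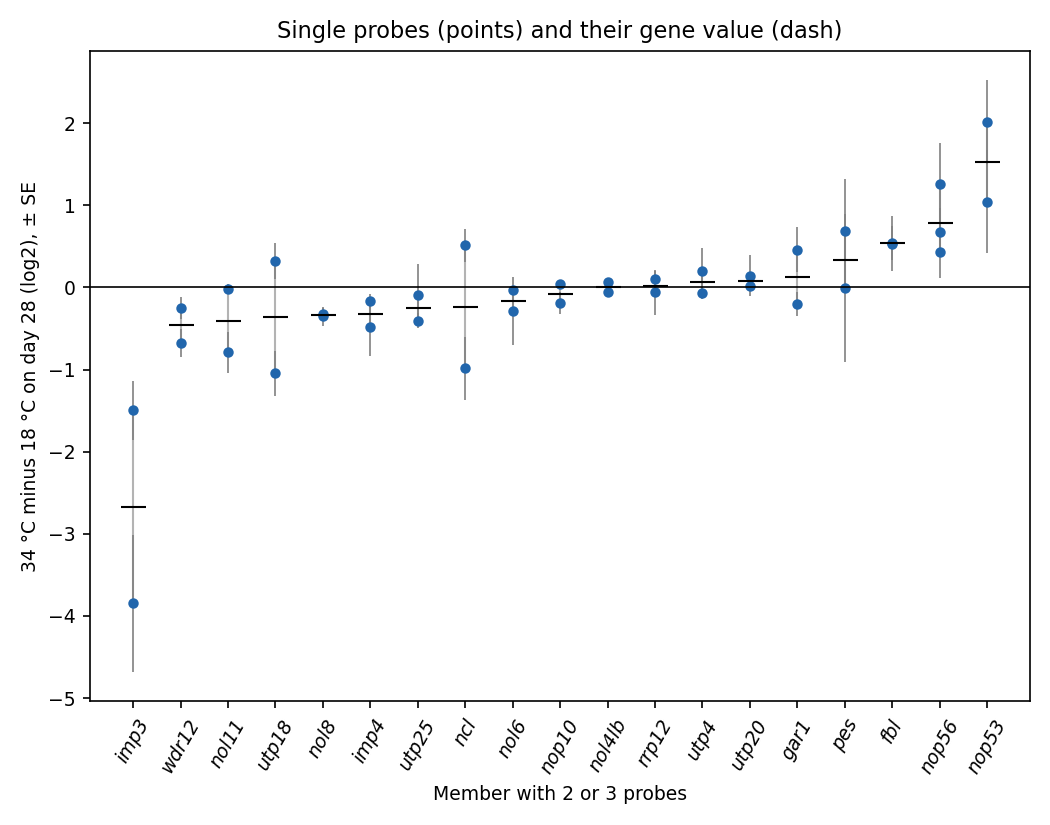
Difference between 34 and 18 °C on day 28 (log2) for each single probe (point, with its moderated SE) of the 19 members with 2 or 3 probes, and for their mean (dash). Both imp3 probes lie below 0 at -3.84 and -1.50, while those of ncl lie on either side of it at -0.98 and 0.51.

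Between 34 and 26 °C on day 28, 12 members were higher and 25 lower at 34 °C, with a median difference of -0.22. This comparison shares its samples at 34 °C with the one against 18 °C, so the 2 are not independent. The median was 0.00048 over all features and -0.014 over genes with a symbol. The higher ones were 32.4% of the members, against 43.8% of genes with a symbol. No member passed in limma on the sample levels, where 0% of features did, and the lowest adjusted p was 0.198, for rrp8. Without adjustment, 12 members (32.4%) had a p under 0.05, of which nop56 was higher and 11 were lower, against 8.79% of all features and 15% of genes with a symbol.

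Without overlap, 17 members (45.9%) lay below both samples at 26 °C, against 20.2% of all features and 27.7% of genes with a symbol. The 3 that lay above (8.11%) were utp4, nop56 and nop53, against 18.6% and 17.1%. In this comparison the probes of fbl, ncl, nol11, nol4lb, nop10, utp18, utp20 and utp4 pointed both ways. Of these, utp4 was counted above and nol11 and nop10 below. The nop53 probes were at 0.14 and 1.58, and for nop53 and nop56 a single probe of each overlapped between 34 and 26 °C. On the arrays directly, dkc1, nol9, rrp8, rrp9, utp11 and wdr12 passed, all lower, or 16.2% of the members against 3.87% of all features. Here too the share among genes with a symbol was not computed for the fit on the arrays. Without replicate 1 at 34 °C, the median over the members turned to 0.044.

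The 4 members that differed by more than 1 on the log2 scale at 34 °C against 26 °C were imp3, utp6 and utp15 of the processome and dkc1 of the box H/ACA particles. imp3 was at -2.05 ± 0.55 (adjusted p of 0.371 in limma), and the 3 arrays that set 34 °C against 26 °C gave -1.04, -2.05 and -2.99. utp6 was at -1.54 ± 0.40 and utp15 at -1.05 ± 0.28, but without replicate 2 at 26 °C, and so without the dye term, these were -0.12 and -0.16. dkc1, of the box H/ACA particles, was at -1.28 ± 0.20, or 2.43-fold lower, with an adjusted p of 0.243 in limma and -0.76, -1.14 and -1.72 on the 3 arrays. All 4 box H/ACA genes were lower at 34 °C than at 26 °C, with a median of -0.42. Of these, only dkc1 had an unadjusted p under 0.05 in limma. The samples of gar1 overlapped, and the nop10 probes were at 0.005 and -0.22. rrp9 was at -0.91 ± 0.14, and at 0.10 without replicate 1 at 34 °C. rrp8 was at -0.82 ± 0.10, with an adjusted p of 0.198.

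At 18 °C against 26 °C on day 28, 17 members were higher and 20 lower, with a median of -0.022. The median was -0.00078 over all features and -0.0027 over genes with a symbol. The higher ones were 45.9% of the members, against 48.3% of genes with a symbol. No member passed in limma on the sample levels, where 0.00282% of features did, and none on the arrays, where 0.0818% did. An unadjusted p under 0.05 was reached by 3 members (8.11%), dkc1, fbl and nop58, all lower at 18 °C, against 4.43% of all features and 7.82% of genes with a symbol. Without overlap, 5 members (13.5%) were higher and 10 (27%) lower at 18 °C, against 11.7% and 13.5% of all features. For this count the share among genes with a symbol was not computed, and in the other comparisons of temperatures that share mostly lay above that of all features. No member differed by more than 1 on the log2 scale.

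All 3 box C/D members were lower at 18 °C than at 26 °C, fbl at -0.57, nop58 at -0.53 and nop56 at -0.15. For nop56 the samples overlapped and the probes pointed both ways, at -0.30, 0.05 and -0.20. dkc1 was at -0.80 ± 0.20 (adjusted p of 0.731 in limma). rrp15 was at -0.71 ± 0.36 and nop53 at -0.67 ± 0.42 (adjusted p of 0.9998 for both in limma). On the other side, imp3 was at 0.62 ± 0.55, which was -0.02 without replicate 2 at 18 °C, and utp11 at 0.58 ± 0.27. For imp3, utp11 and utp15, the mean level was highest at 18 °C, intermediate at 26 °C and lowest at 34 °C, though the samples at 18 and 26 °C overlapped for imp3 and utp15.

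Day 4 against day 28 at 26 °C rests on 1 sample from day 4, which was assumed to vary like the others. Here 15 members were higher and 22 lower on day 4, with a median of -0.11 (-0.0026 over all features and -0.0088 over genes with a symbol). The higher ones were 40.5% of the members, against 47.2% of genes with a symbol. No member passed in limma on the levels or on the arrays, where 0% of features did. An unadjusted p under 0.05 was reached by 5 members (13.5%), against 6.73% of all features. rrp9 and nop10 were the higher ones, and dkc1, rrp8 and nol8 the lower ones. The probes of nop10 pointed both ways, at -0.02 and 0.46. For the unadjusted p in this comparison, the share among genes with a symbol was not computed.

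dkc1 was at -1.37 ± 0.25 on day 4 (adjusted p of 0.645 in limma). imp3 was at -1.28 ± 0.68, which was -0.02 without replicate 2 at 26 °C. nop14, a processome factor, had levels of 0.19 and -0.25 at 18 °C, -0.38 and -0.53 at 26 °C on day 28, 0.70 on day 4, and 0.87 and -0.60 at 34 °C. Its day 4 sample lay level with 1 of the samples at 34 °C. The differences of nop14 (1.16), utp6 (-0.99) and pes (0.75) on day 4 each turned sign when 1 sample was left out.

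The wider pathway was read from 5 further lists, with the members themselves left out and some genes standing on more than one list. nob1, nifk and ppan are on both the 40S list and the large subunit list, so these lists do not divide the factors strictly by subunit. Between 34 and 18 °C, 8 of 22 genes of RNA polymerase I and ribosomal DNA transcription were higher and 14 lower (median -0.12). The lower ones were 63.6% of that list, against 54.5% of all genes with a symbol. No gene of the list passed the adjusted test. An unadjusted p under 0.05 was reached by 36.4% of the list, against 13.9% of all features and 23.4% of genes with a symbol. Of the genes that reached it, ubtf was the only higher one and 7 were lower. Among these 7, polr1e, a subunit of the polymerase, was at -0.68 ± 0.14 (adjusted p of 0.112) and mycb, a Myc transcription factor, at -1.40 ± 0.28 (adjusted p of 0.109), both in limma. With 1 sample or array left out, polr1e lay between -1.17 and -0.10 and mycb between -1.87 and -0.90. mycb had levels of 1.25 and 0.43 at 18 °C, above its other samples.

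Further processome and 40S genes were 16 higher and 26 lower of 42 (median -0.061), and wdr75 passed, where 0.982% of all features did. The share of lower ones was 61.9%, against 54.5% of all genes with a symbol. An unadjusted p under 0.05 in limma was reached by 33.3% of the list, with 6 genes higher and 8 lower. The background for that share was 13.9% of all features and 23.4% of genes with a symbol. wdr75, a UTP-A subunit, had levels of 0.39 and 0.22 at 18 °C, 0.14 and 0.28 at 26 °C on day 28, 0.003 on day 4, and -0.51 and -0.53 at 34 °C. Both samples at 34 °C lay well below the other 5. It fell by 0.82 ± 0.08 on the log2 scale (adjusted p of 0.0415 in limma). abt1 and aatf, also on this list, were at -0.70 and -0.40 and did not pass, and nob1, which cuts the end of the small ribosomal RNA, was at 0.37. With 1 sample or array left out, aatf lay between -0.72 and -0.13 and nob1 between 0.076 and 0.63.

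Of 53 genes of large subunit assembly and export, 23 were higher and 30 lower (median -0.10), and gtpbp4 passed, where 0.982% of all features did. An unadjusted p under 0.05 in limma was reached by 32.1% of the list, with 5 genes higher and 12 lower. That share was 13.9% over all features and 23.4% over genes with a symbol. gtpbp4, a GTPase of the early large-subunit precursor, had levels of -0.80 and -1.0 at 18 °C, -0.34 and -0.93 at 26 °C on day 28, -0.29 on day 4, and 1.56 and 1.80 at 34 °C. It rose by 2.58 ± 0.22 (adjusted p of 0.0387 in limma). Of the genes of its list 56.6% were lower, near the 54.5% of all genes with a symbol. afg2b, senp3b and eif6, the factor that keeps the 2 subunits apart, were at -1.02, -0.73 and -0.72, with adjusted p-values of 0.0555, 0.0563 and 0.0617.

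Of 20 genes of the RNA exosome and its trimming partners, 19 (95%) were lower at 34 °C than at 18 °C, exosc1 being the exception, with a median of -0.34. Over all genes with a symbol, 54.5% were lower. No gene of the list passed the adjusted test, and 10 (50%) had an unadjusted p under 0.05, all lower, against 13.9% of all features and 23.4% of genes with a symbol. exosc10, the nuclear nuclease subunit, was at -0.56 ± 0.08 (adjusted p of 0.0642) and dis3, the core nuclease, at -0.36 ± 0.06 (adjusted p of 0.0844), both in limma. With 1 sample or array left out, exosc10 lay between -0.84 and -0.32 and dis3 between -0.56 and -0.13. xrn2 was at -0.59, but 1 of its 3 probes was at 0.03.

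Among 13 further snoRNP factors, 10 (76.9%) were lower (median -0.22), against 54.5% of all genes with a symbol. ruvbl2 passed, where 0.982% of all features did. An unadjusted p under 0.05 in limma was reached by 5 (38.5%), all lower, against 13.9% of all features and 23.4% of genes with a symbol. ruvbl2, an ATPase of the R2TP complex that assembles snoRNPs, had levels of 0.77 and 0.49 at 18 °C, 0.20 and 0.43 at 26 °C on day 28, -0.19 on day 4, and -0.68 and -1.03 at 34 °C. It fell by 1.48 ± 0.17 on the log2 scale (adjusted p of 0.0494 in limma). Its partner ruvbl1 was at -1.07 ± 0.29 (adjusted p of 0.200), and pih1d1 and coil at -0.48 and -0.44. The calls of wdr75, gtpbp4 and ruvbl2 were lost when any 1 sample or array was left out and with arrays scaled to one spread, and that of ruvbl2 also without the dye term and with a robust prior. The difference of gtpbp4 was between 1.56 and 3.44 with 1 sample or array left out.

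**Figure D5:**
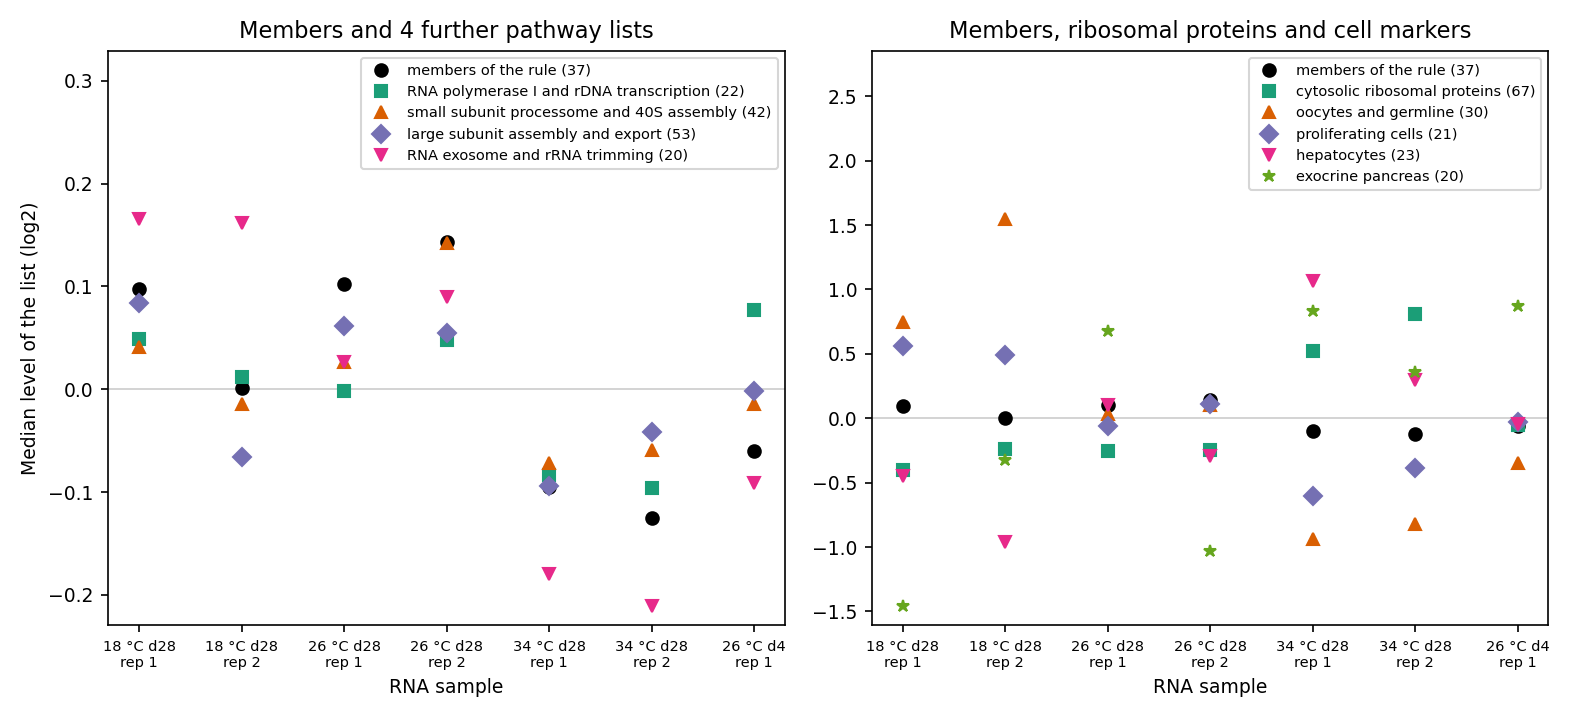
Median level (log2, relative to the mean of 7 samples) of the 37 members and of other gene lists in each RNA sample, with the number of genes in brackets; the 2 panels have different scales. The medians of the members and of the exosome list lie lowest at 34 °C, whereas that of the ribosomal protein genes lies highest there, at 0.52 and 0.81.

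The genes of the cytosolic ribosomal proteins themselves, the material that these factors assemble, had a positive median. Between 34 and 18 °C, rpl4, rpl8, rpl10, rpl15 and rpl27 passed, where 0.982% of all features did. Of all 67 genes, 64 were higher at 34 °C, with a median difference of 1.00, against 45.5% of genes with a symbol. The median level of the ribosomal protein genes was -0.40 and -0.24 at 18 °C, -0.26 and -0.25 at 26 °C on day 28, -0.05 on day 4, and 0.52 and 0.81 at 34 °C. The samples at 34 °C were clearly above the others, while the members' median there was -0.096 and -0.13.

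Markers of other cells moved along the same comparison. The background there was 0.982% of all features passing, with 54.5% of genes with a symbol lower and 45.5% higher. Of 30 oocyte and germline genes, 29 were lower at 34 °C than at 18 °C (h1-10 was the exception) and 6 passed, with a median of -2.06. Their median level was 0.75 and 1.55 at 18 °C and -0.94 and -0.82 at 34 °C. Of 21 genes of proliferating cells, 18 were lower and mad2l1 and rrm1 passed, with a median of -1.07. These stood at 0.56 and 0.49 at 18 °C and at -0.61 and -0.38 at 34 °C. Of 23 hepatocyte genes, all were higher at 34 °C and tfa passed, with a median of 1.56, and their median level was -0.45 and -0.96 at 18 °C and 1.07 and 0.30 at 34 °C. Of 20 exocrine pancreas genes, 17 were higher (median 1.68), at -1.45 and -0.32 at 18 °C and 0.84 and 0.36 at 34 °C. Medians of erythrocyte, leukocyte and biliary, stellate and endothelial markers were 0.0050, 0.080 and 0.061. The part of these markers in the members' values was not tested. Ratios give no absolute level, so the labelled tissue could not be checked against its markers, and in bulk RNA fewer cells of a type and less RNA per cell cannot be told apart.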

How the data were processed

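Liver RNA was measured on 8 Agilent 2-colour arrays. Each probe has 1 log2 ratio for each array in the table deposited by the authors, and the submitters' processing notes name limma without a version. How background was corrected, how ratios were normalized and which genome build applies is not given in the sources used. The log base was taken as log2, because values reach from -8.96 to 8.03, beyond the 4.82 that log10 ratios of a 16-bit scanner allow. Symbols came from the platform annotation (23717 of 43603 probes), updated by Entrez ID or accession. Probes of a gene were averaged, which left 35434 features.

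Least squares turned the 8 ratios of a feature into levels of the 7 RNA samples, with a term for dye (1 residual degree of freedom). The resulting levels were compared between 4 groups with limma 3.58.1 in R 4.3.3 (lmFit, eBayes; 3 residual and 1.63 prior degrees of freedom), two-sided, with Benjamini-Hochberg adjustment over all features and a threshold of 0.05. Errors are moderated SEs. Levels from shared arrays have correlated errors, which the second step ignores. The steps were run on simulated arrays as a check that planted differences came back, and nothing on the p-values is drawn from that run. The number of arrays limits the precision.

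Members and gene lists were chosen with earlier results of these data known. Values per sample are given for the 10 members with the largest difference between 34 and 18 °C. They are also given for the 5 largest in each other comparison and up to 5 opposite to the members' median. For pathway genes they are given for those that passed, with up to 4 of the smallest p per list named. Outside this rule, values per sample are printed for nol9 and rrp8, and for mycb at 18 °C. The labels do not say whether a replicate number marks a shared batch, so the main fit had no replicate block. Differences between replicates 1 and 2 correlated across features at -0.15 (18 and 26 °C), -0.13 (18 and 34 °C) and 0.41 (26 and 34 °C). Because levels from shared arrays have correlated errors, these values cannot decide whether the numbers pair the samples. Alternatives were the dye term, a fit on the arrays, single probes, scaled arrays, a filter on features near 0, the replicate block, a robust prior, leaving out each sample or array, and, added after seeing the data, named genes alone. No sequences are printed, since none were in the sources used here.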

Additional observations from a re-analysis of the deposited data

How the results depend on the processing

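At 34 °C against 18 °C no member passed, but 8 did on the arrays directly, 1 (utp11) with the replicate block, 1 (nol9) among named genes alone and 0 to 1 with a sample or array left out; at 34 °C against 26 °C, 6 passed on the arrays. The members' median difference at 34 °C against 18 °C (-0.17) was -0.21 with scaled arrays, -0.062 over single probes, and -0.32 to -0.060 with a sample or array left out. At 34 °C against 26 °C (-0.22) it was -0.28 without the dye term, -0.28 on the arrays, -0.33 scaled, and -0.58 to 0.044 on leaving out. At 18 °C against 26 °C (-0.022) it was -0.072 scaled and -0.083 to 0.027 on leaving out. For day 4 (-0.11) it was -0.24 on the arrays, -0.21 scaled, -0.17 with the replicate block, -0.047 over single probes and -0.28 to 0.15 on leaving out. Leaving out 1 sample or array turned some single genes. The ranges at 34 °C against 18 °C were -1.52 to 0.042 for rrp9 and -0.24 to 1.28 for rrp15; at 34 °C against 26 °C, -2.30 to 0.10 for rrp9; at 18 °C against 26 °C, -0.016 to 1.29 for imp3; and for day 4, -0.28 to 2.52 for nop14, -2.19 to 0.67 for utp6 and -0.80 to 2.59 for pes, which was -0.51 on the arrays. One of 3 xrn2 probes was at 0.032. wdr75, gtpbp4 and ruvbl2 did not pass with the replicate block. The cause of these changes was not tested. Of the 52 named results, 49 did not pass to begin with, so they could lose no call; all 55 lost calls fell on the 3 that passed, and 20 of 1180 alternatives turned a direction, on 8 results. Features passing at 34 °C against 18 °C numbered 348, and 2994 on the arrays, 572 without features near 0, 226 over single probes, 0 with scaled arrays and 0 without any 1 sample. The dye term could not be fitted without replicate 2 at 26 °C or replicate 1 at 34 °C. The deposited ratios hold no signal, so low-signal probes could not be judged.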
